A study of Mus musculus with 10 samples.

Results

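The collagen chains of the mouse genome were examined in normal mammary fibroblasts (NFs) and lobular breast tumor cells that had been grown in collagen gels. Members were all protein-coding genes whose symbol is Col, a number, a and a number, and 44 of the 55486 genes in the table (21884 of them protein-coding) met this rule. They were grouped by the structure of the protein into 11 fibrillar chains, 9 basement membrane chains (type IV, type VII, type XV and type XVIII), 9 FACIT chains (fibril-associated collagens with interrupted triple helices), 6 beaded-filament chains of type VI, 4 transmembrane chains and 5 others. Expression had been measured by RNA sequencing in 10 libraries from 5 gels made of collagen and BME, a basement membrane extract, each cultured for 7 days. NFs came from 8-week-old mice with the mTmG reporter, whose cells are red until Cre recombinase turns them green, and had been sorted as EpCAM−, CD49f−, CD45− and CD31− cells of pooled FVB/n animals. They were separated by the surface protein CD26 into a negative (CD26−) and a positive (CD26+) subset and grown in culture before use. The CD26+ subset was made green by an adenovirus carrying Cre that the CD26− NFs did not receive, so the virus and the subset cannot be told apart. Tumor cells were the cell lines 13-MCB-17 and 10-SJK-221 from mice that model invasive lobular carcinoma (ILC), with Cre under the Wap promoter, which is active in mammary epithelium, and floxed Cdh1. Gel 1 held both NF subsets without tumor cells, gel 2 held 13-MCB-17 alone, gel 3 held 10-SJK-221 alone, and gels 4 and 5 held both NF subsets with 13-MCB-17 and with 10-SJK-221, respectively. Each gel had been dissolved and its cells sorted by color, which gave 1 library per cell type and gel. Only gel 1 held NFs alone, so co-culture and the gel cannot be told apart in NFs, and each subset alone is 1 library. Nothing in the labels ties the NFs of different gels to different mice, so p-values measure the spread between these libraries, which may be technical.

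Collagens are trimers of chains wound into a triple helix. Fibrillar chains (types I, II, III, V, XI, XXIV and XXVII) form the fibers of connective tissue, type V chains are built into type I fibrils, and FACIT chains sit on the surface of fibrils. Type IV chains form the network of basement membranes, the sheets under epithelia, type VII forms the fibrils that anchor such sheets to the stroma, and type VI forms beaded filaments around cells. In the mammary gland, stromal fibroblasts are the main known source of fibrillar collagen.

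Libraries held 14142334 to 18408940 counts, and levels are given as CPM, counts scaled to the total of the library. An observed 0 allows up to 3 counts, which is 0.163 to 0.212 CPM depending on the library and covers counting error only. Of 10 fibroblast markers, none of them a collagen, all were above this level in every NF library, and their summed level was 6200 to 7352 CPM. In tumor libraries they summed to 37.3 to 68.9 CPM, of which Pdgfra made up most (35.6 to 67.7 CPM), and 3 to 4 of the 10 were above 3 counts in tumor cells alone against 7 in co-culture. The 10 epithelial markers summed to 4751 to 6324 CPM in tumor cells. In NFs alone they summed to 0.807 and 1.61 CPM, with 7 and 6 of them at 0 counts, whereas in co-cultured NFs they summed to 142 to 348 CPM with 0 of them at 0 counts. This sum was 2.99 and 4.58% (CD26− and CD26+ NFs, gel 4) and 3.04 and 6.3% (gel 5) of that in the tumor cells of the same gel, and its single markers ranged up to 17.7% (Krt19). Dpp4, which encodes CD26, reached 0.281, 0.771 and 0.283 CPM in the CD26+ subset of gels 1, 4 and 5, compared with 0, 0 and 0.0575 CPM in CD26− NFs, so the label of each subset was in the direction of its gene in every gel, on few counts. Other marker lists also differed between gel 1 and gels 4 and 5 in NFs. The 4 pericyte markers summed to 21.7 to 34.3 CPM in NFs alone and to 83.2 to 292 CPM in co-culture, the 5 immune markers to 11.5 to 14.1 and 31.5 to 63.3 CPM, and the 4 chondrocyte markers to 78.8 to 81.2 and 14.2 to 25.4 CPM. Within the pericyte list Cspg4 and Mcam were higher in every co-cultured NF library than in NFs alone, whereas Rgs5 had 6.11 to 9.25 CPM in NFs alone but 1.88 to 6.22 CPM beside tumor cells and Abcc9 6.32 to 19.9 and 3.94 to 9.9 CPM. Within the immune list Cd68 and Csf1r were higher, Lyz2 was lower (4.07 to 6.02 and 0.173 to 0.964 CPM), and Ptprc and Cd3e stayed at 0.702 CPM or less. Within the chondrocyte list Sox9 (59.5 to 63.4 and 13.9 to 24.4 CPM) and Comp (15 to 21.4 and 0.23 to 1.48 CPM) were lower. Acan and Matn1 stayed at 0.421 CPM or less, and tumor cells had 28.2 to 90.9 CPM of Sox9. The 5 endothelial markers summed to at most 24.5 CPM, the 4 adipocyte markers to at most 6.46 CPM and the 4 basal or myoepithelial markers to at most 4.28 CPM in any NF library. How far cells of these types account for collagen values was not tested.

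Promoter sequences are shown for the divergent Col4a1 and Col4a2 pair, whose levels stayed close to each other in NFs, for Col3a1 and Col1a2, which with Col1a1 had the highest collagen levels per kb in NFs alone, and for Col7a1, which rose most in co-cultured NFs. They are RefSeq sequences of GRCm38.p6 that run from 250 bases before to 50 bases after a start, and 35 of the 44 members had at least 1 entry (38 in all). Capitals mark CCAAT and TATAAA on either strand (ATTGG and TTTATA on the printed strand), and no marked strings overlap in the printed sequences. Col4a1 lies on the minus strand and Col4a2 on the plus strand, and the windows of the pair share 78 bases, chr8:11312777-11312854. Each of the pair holds 1 CCAAT, neither of which lies wholly within the shared bases.
Col4a1, chr8:11312777-11313076 (minus strand): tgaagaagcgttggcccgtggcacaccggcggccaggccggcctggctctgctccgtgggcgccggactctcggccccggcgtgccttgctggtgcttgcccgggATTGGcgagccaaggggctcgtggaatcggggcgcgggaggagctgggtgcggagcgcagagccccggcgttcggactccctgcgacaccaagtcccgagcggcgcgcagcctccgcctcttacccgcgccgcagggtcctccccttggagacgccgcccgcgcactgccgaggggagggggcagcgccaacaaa
Col4a2, chr8:11312555-11312854 (plus strand): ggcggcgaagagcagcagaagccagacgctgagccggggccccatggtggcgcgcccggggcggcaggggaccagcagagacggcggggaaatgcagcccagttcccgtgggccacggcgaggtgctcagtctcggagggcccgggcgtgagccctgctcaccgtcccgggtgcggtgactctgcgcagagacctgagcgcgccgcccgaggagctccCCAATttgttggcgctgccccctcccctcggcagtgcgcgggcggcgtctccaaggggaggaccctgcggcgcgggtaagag
Col3a1, chr1:45311288-45311587 (plus strand): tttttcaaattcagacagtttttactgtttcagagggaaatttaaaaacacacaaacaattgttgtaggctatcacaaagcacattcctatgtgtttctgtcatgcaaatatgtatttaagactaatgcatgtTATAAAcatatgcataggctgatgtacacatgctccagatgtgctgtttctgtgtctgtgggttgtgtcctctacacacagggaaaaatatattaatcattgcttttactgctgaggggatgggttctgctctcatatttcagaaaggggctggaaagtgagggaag
Col1a2, chr6:4505368-4505667 (plus strand): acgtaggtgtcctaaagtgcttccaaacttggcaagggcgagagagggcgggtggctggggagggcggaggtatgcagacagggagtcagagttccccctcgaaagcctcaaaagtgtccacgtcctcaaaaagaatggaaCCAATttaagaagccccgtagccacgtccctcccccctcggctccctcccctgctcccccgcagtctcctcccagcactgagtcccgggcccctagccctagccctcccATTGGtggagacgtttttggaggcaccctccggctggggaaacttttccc
Col7a1, chr9:108953336-108953635 (plus strand): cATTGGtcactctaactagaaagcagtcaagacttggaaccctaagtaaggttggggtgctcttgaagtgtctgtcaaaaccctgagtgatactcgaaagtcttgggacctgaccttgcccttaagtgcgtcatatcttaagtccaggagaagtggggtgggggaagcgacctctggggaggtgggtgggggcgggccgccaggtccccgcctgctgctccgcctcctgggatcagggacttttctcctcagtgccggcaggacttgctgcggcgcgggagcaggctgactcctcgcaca
CCAAT was found in 13 of the 38 member promoters (34.2%) and in 37.4% of all 32851 promoters in the table, and TATAAA in 5 of 38 (13.2%) and in 13.6% of all. GGGCGG on either strand, not marked above, was found in 23 of 38 (60.5%) and in 35.7% of all. These matches describe letters and not sites in use.

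First, the share of collagen in each library was examined. Collagen chains took 9.13 and 8.43% of all counts in CD26− and CD26+ NFs alone, and 5.89 and 3.73% (gel 4) and 7.01 and 4.62% (gel 5) in co-cultured CD26− and CD26+ NFs. All 4 co-cultured NF libraries were therefore below both libraries of NFs alone, and CD26+ NFs were below CD26− NFs in each gel. Tumor cells devoted 0.482 to 0.589% of counts to collagen, with no separation between tumor cells alone and in co-culture. Because these are bulk samples, fewer cells of a type and less RNA per cell cannot be told apart. To compare levels between genes, CPM was divided by the exon length in kb. On this per-kb scale, fibrillar chains made up 81.2 to 81.5% of the summed collagen level in NFs alone and 65.8 to 73.5% in co-cultured NFs, whereas basement membrane chains went from 3.24 and 3.79% in NFs alone to 7.06 to 11.7% in co-culture. In tumor cells the order was the opposite: basement membrane chains made up 70.8 and 70.9% alone and 58.3 and 65.9% in co-culture, and fibrillar chains 7.08 and 3.15% alone and 14.7 and 9.7% in co-culture. Col8a1, a short chain of type VIII collagen, alone made up 18.6 and 21% of the tumor collagen level in tumor cells alone, and Col18a1 36 and 41.6%. Type VI chains were the second class in NFs, with 11.2 to 18.8% of the per-kb level.

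**Figure D1:**
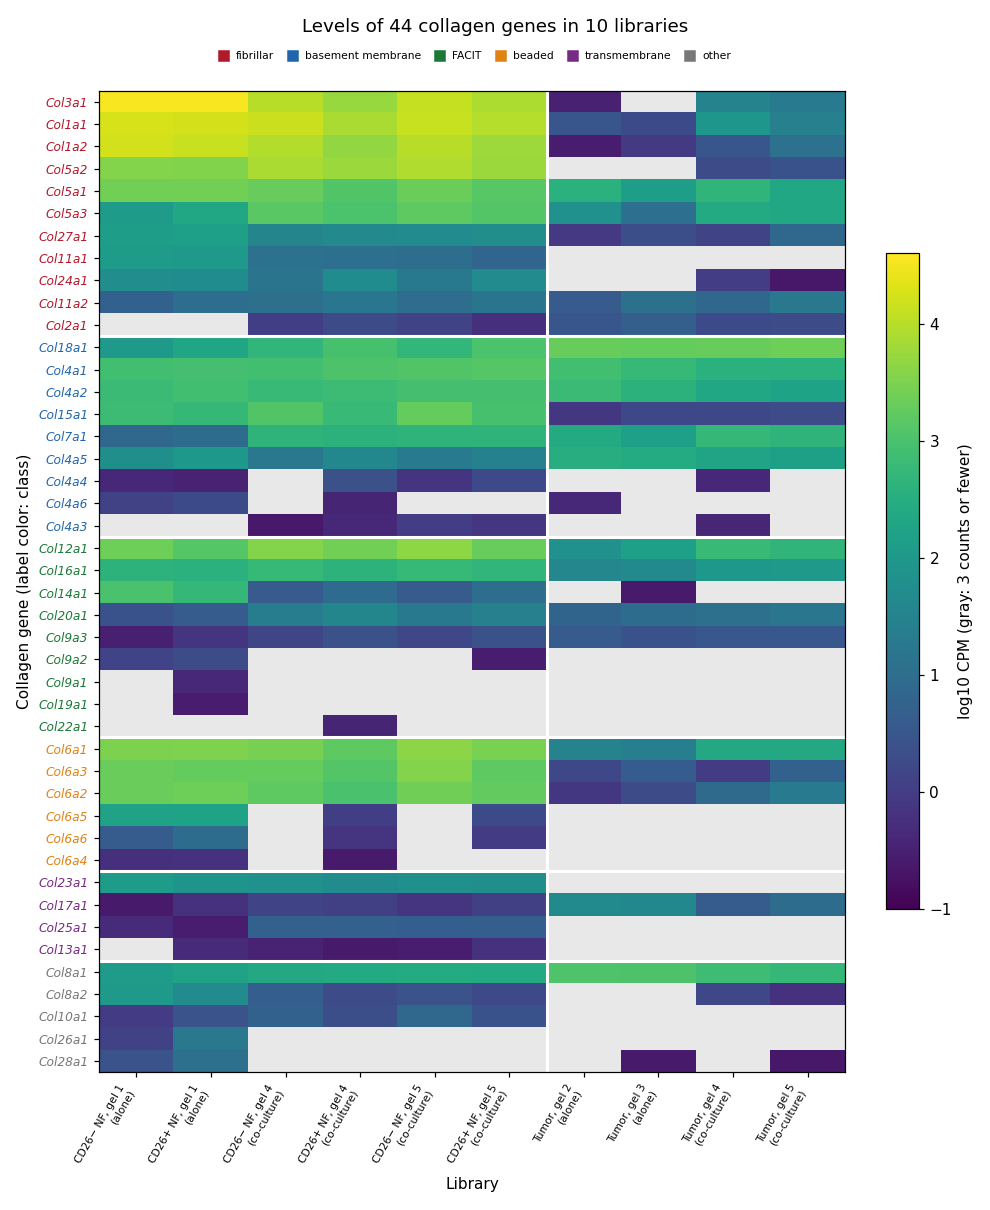
Level of each of the 44 collagen genes (rows, grouped and label-colored by class) in each of the 10 libraries (columns), as log10 CPM, with gray where a library had 3 counts or fewer. Fibrillar and beaded chains fill the NF columns, and Col18a1, Col8a1, Col4a1 and Col4a2 are the brightest rows for tumor cells alone.

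**Figure D2:**
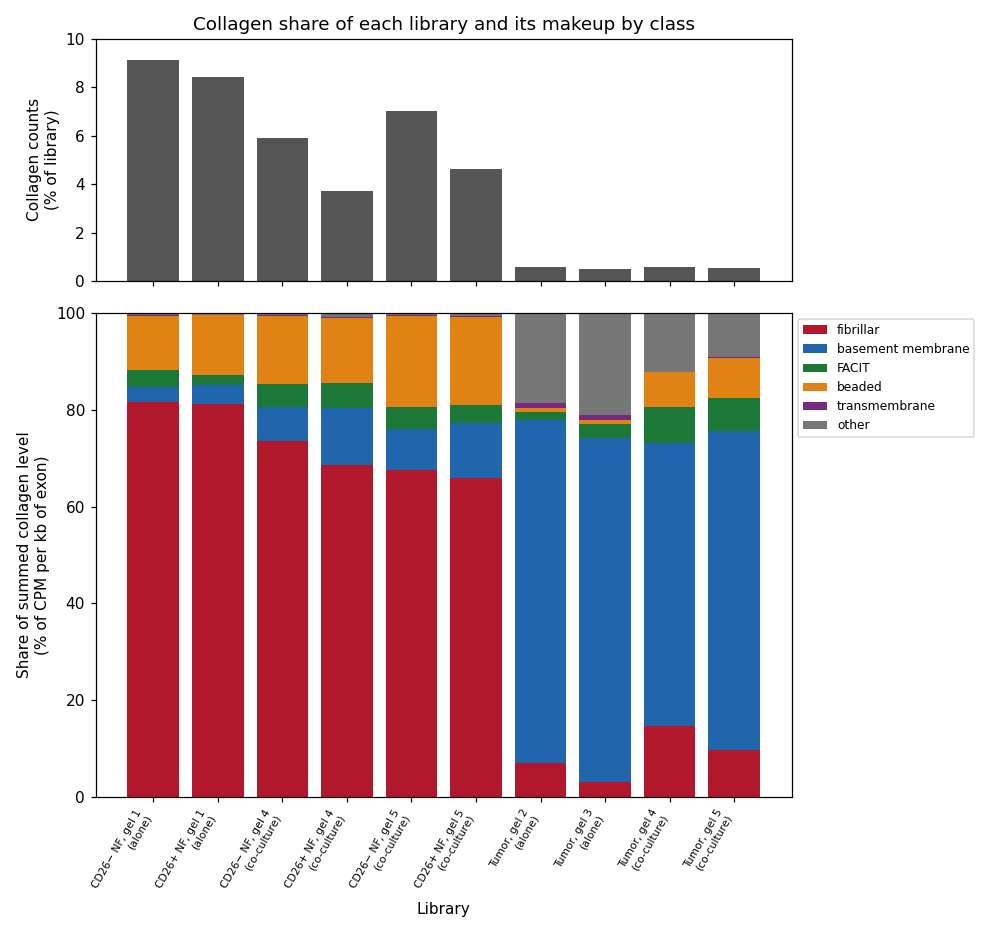
Top, collagen counts as a percentage of all counts in each library. Bottom, share of each class in the summed collagen level of the library, in CPM per kb of exon. Bars stand for single libraries and have no error. Collagen takes 9.13 and 8.43% of counts in NFs alone compared with 3.73 to 7.01% in co-cultured NFs, and the basement membrane share of tumor cells is 58.3 to 70.9%.

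Next, NFs were compared with tumor cells grown alone to ask which chains each cell type made. Of 44 chains, 41 passed the filter on low counts, 27 were higher and 8 lower in NFs at an adjusted p under 0.05 (edgeR quasi-likelihood test, Benjamini-Hochberg adjustment over all genes). Differences given with an SE and an adjusted p are on the log2 scale throughout. Among all 17048 genes tested, 28.4% were higher and 27.1% lower. The median log2 difference was 5.68 over the 41 chains and 0.02 over all genes. Higher in NFs were 9 of 11 fibrillar chains and all 6 type VI chains, and the 8 chains higher in tumor cells were 3 of the basement membrane (Col18a1, Col7a1 and Col4a5), 2 FACIT chains (Col20a1 and Col9a3), Col17a1, Col8a1 and Col2a1. The Col6a4 call, on 9 and 9 counts in NFs, was lost with DESeq2 and without any 1 of gels 2 to 5. The Col5a3 call was lost without gel 4, without gel 5 and when only the 4 libraries grown alone were fitted. The cell types were cultured in different gels here, so cell type and gel cannot be told apart in this comparison.

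Col3a1, the sole chain of type III collagen (ENSMUSG00000026043, chr1:45311538-45349706), had 35673 and 34521 CPM in CD26− and CD26+ NFs alone, respectively, but 0.326 and 0.127 CPM in 13-MCB-17 and 10-SJK-221 cells alone, and it was the first of all genes by counts in both libraries of NFs alone. Col1a1 and Col1a2 (ENSMUSG00000001506, chr11:94936224-94953042 and ENSMUSG00000029661, chr6:4504814-4541544) encode the chains of type I collagen. Col1a1 had 18556 and 17368 CPM in NFs alone but only 3.1 and 1.78 CPM in tumor cells alone, and Col1a2 had 16363 and 13169.9 CPM but only 0.272 and 0.891 CPM. The groups lay orders of magnitude apart, with differences of 12.95, SE 0.78, adjusted p = 3.63e-06 for Col1a1 and 14.78, SE 0.93, adjusted p = 4.55e-06 for Col1a2 (log2). Type V chains were unequal in tumor cells. Col5a2 had 3705 and 3543 CPM in NFs alone but 0 and 1 counts in tumor cells alone, whereas Col5a1 had 2549 and 2503 CPM in NFs and still 379.8 and 137 CPM in tumor cells alone. Col23a1, a transmembrane chain, had 116 and 77.2 CPM in NFs alone, compared with 0 counts in both tumor libraries, so that it was at least 546-fold higher in NFs against a floor of 3 counts per library.

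Chains above 100 CPM in tumor cells alone that were higher there than in NFs were Col18a1, Col8a1, Col4a5 and Col7a1. Col18a1 (ENSMUSG00000001435, chr10:77052178-77166548), whose C-terminal fragment is endostatin, reached 2006 and 1911 CPM in tumor cells alone, compared with 100 and 205 CPM in NFs (NFs minus tumor −3.64, SE 0.20, adjusted p = 2.08e-06). Col8a1 had 1158 and 1075 CPM against 116 and 165 CPM (−2.89, SE 0.22, adjusted p = 1.38e-05), and Col4a5 301 and 283 CPM against 61.7 and 97.1 CPM (−1.78, SE 0.19, adjusted p = 9.98e-05). Col7a1 had 263 and 143 CPM against 7.39 and 9.48 CPM (−4.48, SE 0.34, adjusted p = 1.24e-05). Among libraries grown alone, each tumor library was above each NF library for these 4 chains. Col17a1, the hemidesmosome protein that fixes basal epithelial cells to the basement membrane, reached 45.5 and 41.9 CPM in tumor cells alone against 0.248 and 0.632 CPM in NFs (−6.63, SE 0.53, adjusted p = 1.7e-05). Col4a1 and Col4a2, the main type IV chains, did not differ past the threshold: Col4a1 had 784 and 903 CPM in NFs compared with 809 and 571 CPM in tumor cells (0.41, SE 0.28, adjusted p = 0.245), and Col4a2 662 and 789.5 and 641 and 388 CPM (0.61, SE 0.32, adjusted p = 0.137). Low chains that were higher in tumor cells were Col9a3 (−2.69), Col2a1 (−4.92) and Col20a1 (−1.12), all at most 9.42 CPM in tumor cells alone. The Col20a1 call was lost without gel 3, gel 4 or gel 5 and when only the 4 libraries grown alone were fitted, and in the shared gels Col20a1 was higher in NFs (1.11, SE 0.23, adjusted p = 0.0045), a call lost without gel 4 or gel 5.

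Inside the shared gels 4 and 5, 25 of 41 chains were higher and 4 lower in NFs than in tumor cells, against 27.7% and 24.2% of all genes, and the median difference was 2.68 (0.06 over all genes). The 4 chains that stayed higher in tumor cells were Col18a1 (−1.42), Col4a5 (−2.55), Col17a1 (−2.47) and Col8a1 (−1.06). Col7a1, higher in tumor cells when grown alone, was not called in the shared gels: CD26− and CD26+ NFs had 437 and 389 CPM in gel 4 and 443 and 441 CPM in gel 5, and tumor cells had 539 and 432 CPM in gels 4 and 5 (0.02, SE 0.25, adjusted p = 0.971). Col4a1 (1.72, SE 0.26, adjusted p = 0.000848) and Col4a2 (2.15, SE 0.31, adjusted p = 0.000574) were higher in NFs in these gels. Without gel 5, 16 were higher and 3 lower, against 9.175% and 6.41% of all genes. The calls lost in that fit included Col4a1, Col4a2 and Col12a1 (adjusted p = 0.0766, 0.0827 and 0.0649). They also included Col5a1, Col5a3, Col6a5, Col8a2, Col20a1 and Col17a1. Without gel 4, 19 were higher and 3 lower, against 10.5% and 7.69% of all genes. The calls of Col8a1, Col5a1, Col5a3, Col6a5, Col8a2, Col13a1 and Col20a1 were lost. With scaling to library totals alone, 25 were higher and 5 lower, against 23.5% and 30.7% of all genes.

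NFs co-cultured with tumor cells were then compared with NFs alone to ask how the collagen program of fibroblasts changes beside tumor cells. Of 39 chains tested, 14 rose and 17 fell, against 25.9% and 22.9% of all 15013 genes, and the median change was 0.03 (0.02 over all genes). Changes went in both directions within every class but type VI: 4 fibrillar chains rose and 7 fell, 4 basement membrane chains rose and 2 fell, 4 FACIT chains rose and 2 fell, and of 5 tested type VI chains 2 fell and 3 were not called. In this comparison 2 gels stand against 1.

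Among fibrillar chains, type III collagen fell most of the abundant ones. Col3a1 went from 35673 and 34521 CPM in CD26− and CD26+ NFs alone to 10148 and 5484 CPM in gel 4 and 13081 and 8105 CPM in gel 5, and every co-cultured library was below both libraries of NFs alone (3.81-fold lower by means; log2 −1.95, SE 0.26, adjusted p = 0.000233). Col1a2 went from 16363 and 13169.9 CPM to 8865 and 4875 CPM in gel 4 and 9974 and 5999 CPM in gel 5 (−0.99, SE 0.20, adjusted p = 0.00299), and Col1a1 from 18556 and 17368 CPM to 14344 and 7882 CPM in gel 4 and 13752 and 9544 CPM in gel 5 (−0.66, SE 0.21, adjusted p = 0.0258). Both type I chains were also lower in every co-cultured library, by less than Col3a1. The Col1a1 call was lost when either gel 4 or gel 5 was left out, and that of Col1a2 without gel 4. The per-kb ratio of Col3a1 to Col1a1 was 1.29 and 1.33 in NFs alone and 0.465 to 0.636 in co-culture.

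Type V chains diverged from each other. Col5a2 rose from 3705 and 3543 CPM to 7597 and 5706 CPM in gel 4 and 8736 and 5834 CPM in gel 5 (0.96, SE 0.20, adjusted p = 0.00305), and Col5a3 from 117 and 215 CPM to 1477 and 1059 CPM in gel 4 and 1651 and 1253 CPM in gel 5 (3.08, SE 0.32, adjusted p = 4.83e-05). Every co-cultured library was above both libraries of NFs alone for both chains. Col5a1 instead went from 2549 and 2503 CPM to 1941 and 1227 CPM in gel 4 and 2152 and 1415 CPM in gel 5 (−0.58, SE 0.19, adjusted p = 0.027), a fall that was lost without gel 4 or gel 5. As a result, the per-kb ratio of Col5a1 to Col5a2 went from 0.777 and 0.798 to 0.243 to 0.289, and that of Col5a3 to Col5a1 from 0.057 and 0.107 to 0.949 to 1.1. Tumor cells of the same gels had 262 and 223 CPM of Col5a3, below each NF library of these gels.

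Of the less abundant fibrillar chains, 3 fell and 2 rose. Col11a1, a cartilage chain that assembles with type II and type V chains, went from 119.5 and 104 CPM to 12.1 and 11 CPM in gel 4 and 10.4 and 6.72 CPM in gel 5 (−3.43, SE 0.17, adjusted p = 7.9e-07), and Col27a1 from 141 and 146 CPM to 34.7 and 42.7 CPM in gel 4 and 51.6 and 59.1 CPM in gel 5 (−1.57, SE 0.19, adjusted p = 0.000148). The groups did not overlap for either. Of the chondrocyte markers, Sox9 and Comp were lower in the same libraries, whereas Acan and Matn1 had at most 0.421 CPM in any NF library. Their part in the fall of Col11a1 was not tested. Col24a1 (−0.93, SE 0.31, adjusted p = 0.0317) had 56.4 and 53.7 CPM in NFs alone, compared with 14.1 and 53.1 CPM in gel 4 and 18.7 and 49.1 CPM in gel 5, so that it was lower in CD26− NFs and within 10% of its level alone in CD26+ NFs. Its call was lost without gel 4 and without gel 5 (adjusted p up to 0.111). Low fibrillar chains that rose were Col11a2 (0.82, at most 16 CPM in NFs) and Col2a1 (3.19, at most 1.86 CPM in NFs).

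Among basement membrane chains, Col7a1 changed most. It had 7.39 and 9.48 CPM in CD26− and CD26+ NFs alone and 437 and 389 CPM in gel 4 and 443 and 441 CPM in gel 5, which is 50.7-fold higher by means (log2 5.71, SE 0.21, adjusted p = 1.13e-07). The co-cultured libraries lay close together, and their level was 81.2 and 72.2% (gel 4) and 102 and 102% (gel 5) of that in the tumor cells of the same gel, where the epithelial markers summed to 2.99 to 6.3%. Col18a1 rose from 100 and 205 CPM to 478 and 931 CPM in gel 4 and 523 and 1046 CPM in gel 5 (2.35, SE 0.16, adjusted p = 4.01e-06). Its level in co-cultured NFs was 24.2 and 47.1% (gel 4) and 22.1 and 44.3% (gel 5) of the tumor level, while single epithelial markers reached 17.7% (Krt19). The part of tumor RNA or tumor cells in the NF values of Col7a1 and Col18a1 was not tested. In each gel, both subsets were above both libraries of NFs alone for these chains.

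Col15a1, a close relative of Col18a1, went from 692 and 546 CPM to 1185 and 619.5 CPM in gel 4 and 1881 and 934 CPM in gel 5 (0.87, SE 0.27, adjusted p = 0.0241), with CD26+ NFs of gel 4 below CD26− NFs alone and a call that was lost without gel 5. Of the pericyte markers, Cspg4 and Mcam were higher in the same libraries and Rgs5 and Abcc9 overlapped between cultures, their part in the rise was not tested, and tumor cells had 0.815 to 1.88 CPM of Col15a1. Col4a1 had 784 and 903 CPM in NFs alone, compared with 785 and 1084 CPM in gel 4 and 1231 and 1305 CPM in gel 5 (0.44, SE 0.21, adjusted p = 0.113), and Col4a2 had 662 and 789.5 CPM and then 614 and 692 CPM in gel 4 and 895 and 897 CPM in gel 5 (0.15, SE 0.20, adjusted p = 0.565), so that the groups overlapped or touched and neither passed the threshold. The per-kb ratio of Col4a1 to Col4a2 was 1.01 to 1.39 over the 6 NF libraries. Col4a5 fell from 61.7 and 97.1 CPM to 17.2 and 40.1 CPM in gel 4 and 19.6 and 29.2 CPM in gel 5 (−1.57, SE 0.15, adjusted p = 3.69e-05), without overlap, although tumor cells had 154 to 184 CPM in the same gels. Its X-linked neighbor Col4a6 fell on low levels (−3.45, at most 1.83 CPM), Col4a3 rose on low levels (3.19, at most 1.04 CPM in NFs), a call lost with DESeq2 (adjusted p = 0.0537), and Col4a4 was not called. Like Col4a1 and Col4a2, these genes lie in head-to-head pairs: the 5′ ends of Col4a3 and Col4a4 are 72 bases apart and those of Col4a5 and Col4a6 1309 bases apart.

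FACIT chains split sharply. Col14a1 (ENSMUSG00000022371, chr15:55307750-55520803), which binds the surface of type I fibrils, fell from 974 and 531 CPM in CD26− and CD26+ NFs alone to 4.12 and 8.86 CPM in gel 4 and 4.09 and 10.7 CPM in gel 5 (108-fold lower by means; log2 −6.83, SE 0.39, adjusted p = 1.43e-06). The related Col12a1 instead rose, from 2363 and 1301 CPM to 3685 and 2499.8 CPM in gel 4 and 4377 and 1945 CPM in gel 5 (0.82, SE 0.18, adjusted p = 0.00472), with each subset above its own level in gel 1 but CD26+ NFs of gel 5 below CD26− NFs alone. Col16a1 had 424 and 373 CPM in NFs alone, compared with 564 and 422 CPM in gel 4 and 556 and 489 CPM in gel 5 (0.39, SE 0.14, adjusted p = 0.0417), a small rise that was lost without gel 5, with scaling to library totals alone and without the filter on low counts. Col20a1 (3.02, from 2.55 and 4.21 CPM to 18 to 36.5 CPM) and Col9a3 (2.04, at most 2.5 CPM in NFs) rose, and Col9a2 fell (−3.82, at most 2.04 CPM). Col9a1, Col19a1 and Col22a1 did not pass the filter and had at most 0.421 CPM in any library.

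The 3 chains of classical type VI collagen were not called. Col6a1 had 3180.1 and 3256 CPM in NFs alone, compared with 2832 and 1647 CPM in gel 4 and 4303 and 2969.9 CPM in gel 5 (−0.13, SE 0.29, adjusted p = 0.743), Col6a2 2069.6 and 2305 CPM and 1602 and 988 CPM in gel 4 and 2422 and 1842 CPM in gel 5 (−0.33, SE 0.29, adjusted p = 0.367), and Col6a3 2126 and 1856 CPM and 1883 and 1265 CPM in gel 4 and 3590.2 and 1608 CPM in gel 5 (0.03, SE 0.29, adjusted p = 0.928). For each, both libraries of NFs alone lay inside the range of the co-cultured ones, and gel 4 was lower than gel 5 in each subset. Col6a5 instead passed the threshold and fell, from 169.6 and 175 CPM to 0.121 and 1.09 CPM in gel 4 and 0.173 and 1.77 CPM in gel 5 (−7.89, SE 0.41, adjusted p = 8.76e-07), and its neighbor on chromosome 9, Col6a6, fell from 4.16 and 9.62 CPM to 0 to 0.919 CPM (−4.34, SE 0.55, adjusted p = 0.000176). In counts, Col6a5 kept 2 and 3 in co-cultured CD26− NFs and 17 and 25 in co-cultured CD26+ NFs, so its log2 change is poorly bounded in CD26− NFs. Col6a4, the third gene of this cluster, did not pass the filter.

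Of the remaining chains, the short-chain partners Col8a1 and Col8a2 separated. Col8a2 fell from 107 and 49.9 CPM to 4.67 and 1.93 CPM in gel 4 and 2.7 and 1.7 CPM in gel 5 (−4.78, SE 0.18, adjusted p = 1.72e-07), whereas Col8a1 rose from 116 and 165 CPM to 235 and 269.8 CPM in gel 4 and 280.4 and 263 CPM in gel 5 (0.97, SE 0.17, adjusted p = 0.00115), and neither overlapped between cultures. Tumor cells of these gels had 729 and 523 CPM of Col8a1. The transmembrane chain Col23a1 fell from 116 and 77.2 CPM to 66.8 and 49.8 CPM in gel 4 and 66.4 and 57.3 CPM in gel 5 (−0.62, SE 0.13, adjusted p = 0.00339), and Col25a1 rose from 0.497 and 0.281 CPM to 4.66 to 5.45 CPM (3.70) while it had 0 counts in all tumor libraries. Col26a1 (−6.35, 1.3 and 17.3 CPM in NFs alone, compared with at most 0.141 CPM after) and Col28a1 (−5.71, 2.73 and 11.9 CPM and at most 0.193 CPM after) fell to 3 counts or fewer in every co-cultured NF library. Col10a1 and Col17a1 were not called, and Col13a1 was not tested.

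**Figure D3:**
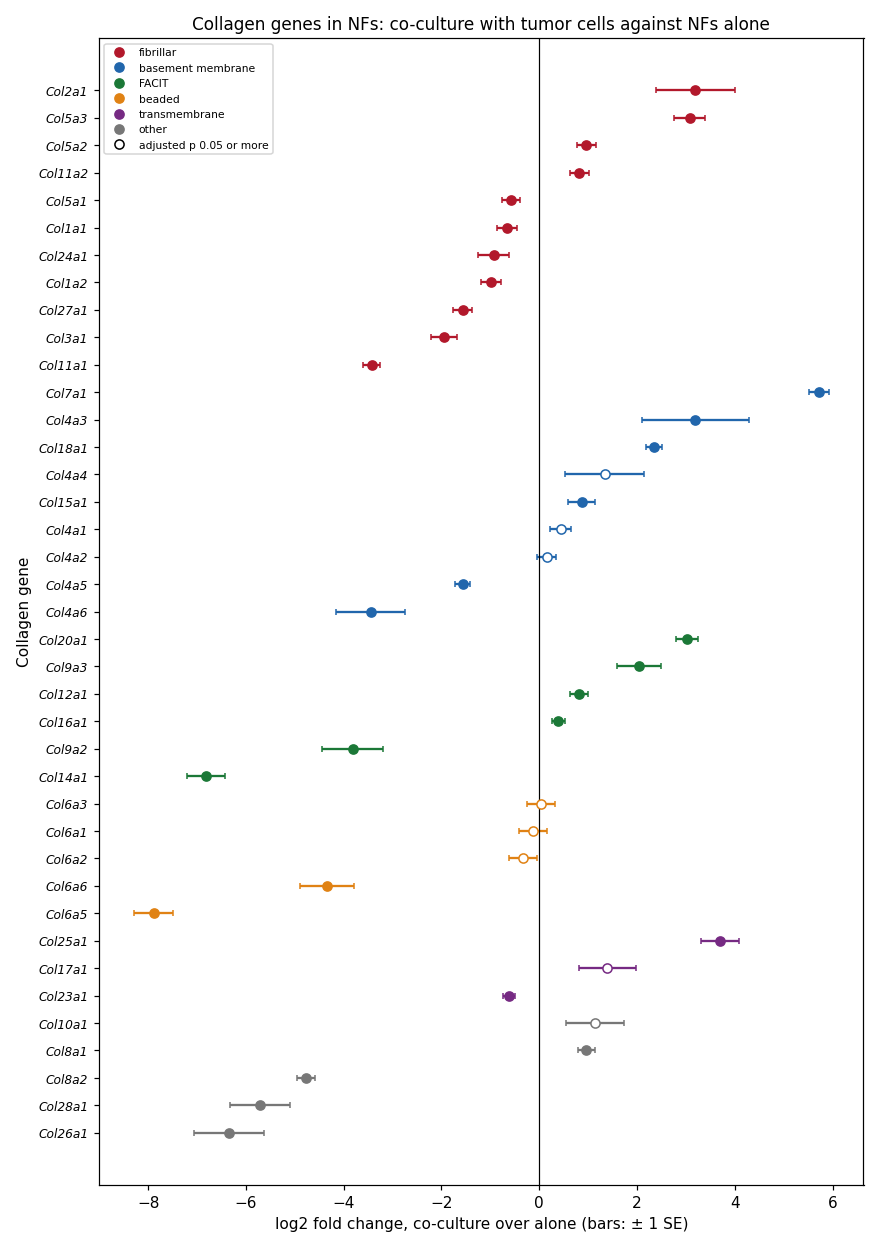
Log2 fold change of the 39 tested collagen genes in co-cultured NFs over NFs alone (points, colored by class) with 1 SE to each side, from 4 co-cultured libraries and 2 libraries of NFs alone. Filled points passed an adjusted p of 0.05. Values run from −7.89 (Col6a5) to 5.71 (Col7a1), and each class except beaded chains has filled points on both sides of 0.

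Genes that build collagen were read from a list of 32 enzymes, chaperones, proteases and crosslinkers. In co-cultured NFs 12 of 32 rose and 8 fell, against 25.9% and 22.9% of all genes, with a median change of 0.15. P4ha2 (1.86, SE 0.17, adjusted p = 2e-05), a catalytic subunit of the prolyl 4-hydroxylase whose product stabilizes the helix, and the lysyl hydroxylase Plod1 (1.85, SE 0.23, adjusted p = 0.000145) rose. Adamts14 (2.40, SE 0.17, adjusted p = 4.83e-06) and Colgalt2 (3.00, SE 0.97, adjusted p = 0.0282, at most 3.75 CPM) rose as well. Procollagen N-propeptide proteases went in opposite directions, since Adamts2 fell from between 845 and 1102 CPM to between 204 and 395 CPM (−1.71, SE 0.19, adjusted p = 8.22e-05) and Adamts3 fell too (−2.14, SE 0.36, adjusted p = 0.00108), whereas their relative Adamts14 rose. Pcolce, which enhances cleavage of the C-propeptide, fell from between 882 and 1251 CPM to between 212 and 292 CPM (−2.09, SE 0.16, adjusted p = 8.5e-06), as did Pcolce2 (−1.12). Of 13 tested receptor and turnover genes, 7 rose and 2 fell, against the same 25.9% and 22.9%. The collagen-binding integrin chains Itga2 (2.91), Itga1 (1.73) and Itga10 (1.39) and the collagenase Mmp13 (2.23) rose, and the receptor Ddr1 (−0.96) and Mmp14 (−0.90) fell. Itga2 had 156 to 302 CPM and Mmp13 1714 to 2114 CPM in the tumor cells of these gels.

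To compare the NF subsets, CD26+ NFs were set against CD26− NFs over the 3 gels. Of 39 chains tested, 2 were higher and 4 lower in CD26+ NFs, against 3.93% and 3.6% of all genes, and 33 were not called. Col18a1 had 100, 478 and 523 CPM in CD26− NFs, compared with 205, 931 and 1046 CPM in the CD26+ subset (gels 1, 4 and 5). It was thus higher in CD26+ NFs in 3 of 3 gels, by a log2 CPM ratio of 0.96 to 1.03 in each of them, with or without tumor cells (0.84, SE 0.13, adjusted p = 0.00909). Col4a5 was higher in 3 of 3 gels as well (97.1, 40.1 and 29.2 against 61.7, 17.2 and 19.6 CPM; 0.67, SE 0.15, adjusted p = 0.0327). Both of these chains are higher still in tumor cells. The epithelial marker sum was higher in CD26+ than in CD26− NFs in every gel, at 1.61 against 0.807 CPM in gel 1, which holds no tumor cells. In gel 1 only 2 of the 10 markers were above 3 counts in each subset. Krt7 (0.211 against 0.373 CPM) and Krt8 (0 against 0.0621 CPM) went the other way there. The part of epithelial or tumor RNA in the subset differences of Col18a1 and Col4a5 was not tested.

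Col12a1 was lower in CD26+ NFs in 3 of 3 gels, at 1301, 2499.8 and 1945 CPM against 2363, 3685 and 4377 CPM (−1.02, SE 0.17, adjusted p = 0.0102). Col1a2 (−0.79, SE 0.20, adjusted p = 0.0425), Col8a2 (−1.20, SE 0.19, adjusted p = 0.0098) and Col23a1 (−0.56, SE 0.12, adjusted p = 0.0298) were also lower in all 3 gels. Col1a1 (−0.65, SE 0.20, adjusted p = 0.0842), Col3a1 (−0.69, SE 0.25, adjusted p = 0.129), Col15a1 (−0.93, SE 0.25, adjusted p = 0.0525) and Col6a3 (−0.85, SE 0.27, adjusted p = 0.0906) were lower in CD26+ NFs in each gel by CPM without passing the threshold. With gel as a replicate block, 9 chains passed, against 4.4% of all genes higher and 4.47% lower: Col15a1 (−0.92, adjusted p = 0.015) and Col6a3 (−0.80, adjusted p = 0.0396) joined the lower ones and Col26a1 (2.94, adjusted p = 0.0425) the higher ones. The Col26a1 difference rests on gel 1, with 21 and 246 counts in CD26− and CD26+ NFs against 0 to 2 counts in the other gels. Without gel 5, 0 of 37 chains passed with edgeR, against 0.0831% higher and 0.0346% lower of all genes in that fit, 12 had an unadjusted p under 0.05, and the log2 differences were 0.87 for Col18a1 and −0.84 for Col12a1. The calls of Col1a2 and Col4a5 were also lost without gel 4 (adjusted p = 0.239 and 0.0654), and those of Col8a2 and Col23a1 without gel 1, where 6 chains were higher and 6 lower against 4.15% and 2.63% of all genes. Those of Col1a2 and Col23a1 were lost with scaling to library totals as well. DESeq2 over all 3 gels called 4 higher and 10 lower, against 2.68% and 3.15% of all genes. With scaling to library totals alone, 3 were higher and 2 lower, against 7.46% and 1.75% of all genes.

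**Figure D4:**
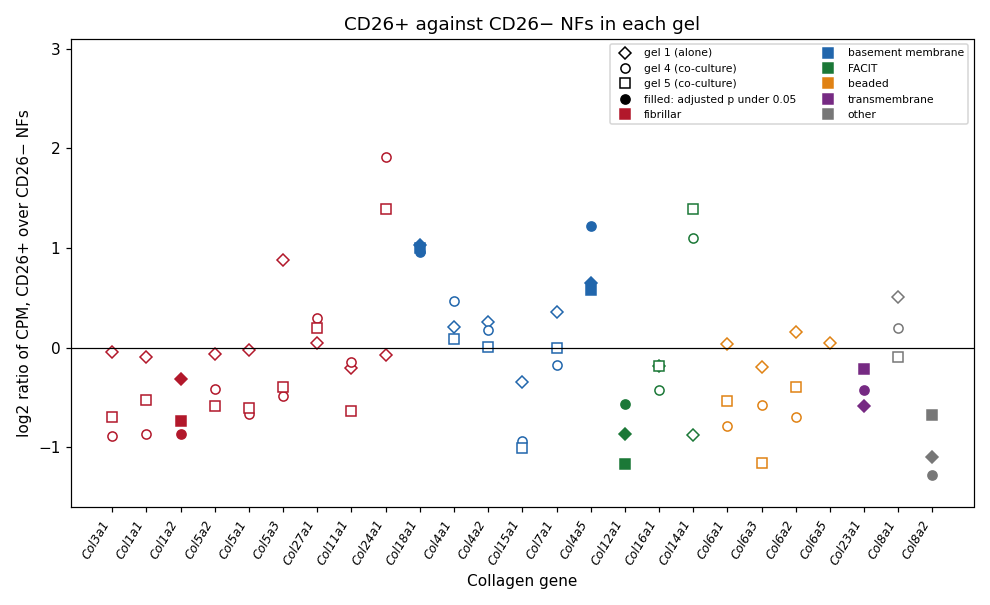
Log2 ratio of CPM in CD26+ over CD26− NFs for the 25 chains with a group mean of at least 50 CPM, in gel 1 (diamonds), gel 4 (circles) and gel 5 (squares), where both libraries had more than 3 counts. Symbols are single ratios without error and are filled where the test over the 3 gels passed an adjusted p of 0.05. The 3 symbols of Col18a1 lie together near 1, those of Col12a1, Col1a2, Col23a1 and Col8a2 lie below 0, and Col24a1 and Col14a1 differ between gel 1 and the other gels.

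Whether the subsets respond differently to co-culture was tested as the interaction of subset and culture. Each subset alone is 1 library, so the spread in this test comes from gels 4 and 5, and the lone libraries are assumed to vary alike. Of 41 chains, 3 had a more positive response in CD26+ NFs and 0 a more negative one, against 0.228% and 0.148% of all genes, and 7 had an unadjusted p under 0.05. DESeq2 called 3 and 1, against 0.194% and 0.164% of all genes. Col14a1 was higher in CD26− NFs when alone (974 against 531 CPM) and higher in CD26+ NFs in gel 4 (8.86 against 4.12 CPM) and gel 5 (10.7 against 4.09 CPM), a difference in response of 2.10, SE 0.33, adjusted p = 0.0144. Its fall was 236- and 238-fold in CD26− NFs and 59.9- and 49.4-fold in CD26+ NFs. Col24a1 was lower in co-culture by 3.99- and 3.01-fold in CD26− NFs and 1.01- and 1.09-fold in CD26+ NFs (1.67, SE 0.33, adjusted p = 0.04995). Col6a5 also passed (3.13, SE 0.58, adjusted p = 0.0406), on the few counts given above. With gel as a replicate block, where 1.42% and 1.01% of all genes were called, these 3 still passed and Col10a1 (−3.0, adjusted p = 0.000419) and Col5a3 (−1.35, adjusted p = 0.000597) joined them with a more negative response in CD26+ NFs, whereas without the filter on low counts 0 of the 3 passed with edgeR (0.0402% and 0.0256% of all genes called), with 7 chains at an unadjusted p under 0.05. The block fit leaves fewer residual degrees of freedom than the main fit, so its p-values rest more on spread shared across genes. With a filter of 1 CPM in 2 libraries the calls of Col24a1 and Col6a5 were lost. Col5a3 rose 12.7- and 14.2-fold in CD26− NFs and 4.92- and 5.83-fold in CD26+ NFs.

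Tumor cells in co-culture were compared with tumor cells alone within each line. Of 25 chains tested, 15 rose and 6 fell, against 10.8% and 11.5% of all 13197 genes, and the median change was 0.79 (0.01 over all genes). Of 9 tested fibrillar chains 8 rose, and of 6 tested basement membrane chains 3 fell and 1 rose. Each line had 1 library per culture, and line was a term of the fit. Without the line term, 0 chains passed with edgeR, as did 0 of all 13197 genes, although 18 had an unadjusted p under 0.05, and DESeq2 with the line term called 11 higher and 5 lower (2.95% and 3.47% of all genes), without Col8a2, Col27a1, Col20a1, Col11a2 and Col2a1.

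Chains that tumor cells made when alone and that rose in co-culture included Col12a1, which went from 66.4 and 144 CPM in 13-MCB-17 and 10-SJK-221 cells alone to 602 and 469 CPM (2.41, SE 0.29, adjusted p = 0.000954), Col6a1, from 32.6 and 24.4 to 239 and 245 CPM (3.07, SE 0.14, adjusted p = 1.56e-05), and Col5a3, from 67.3 and 10.9 to 262 and 223 CPM (3.00, SE 0.46, adjusted p = 0.00263). Col7a1 rose from 263 and 143 to 539 and 432 CPM (1.29, SE 0.15, adjusted p = 0.000805), Col16a1 from 39.5 and 48.3 to 99 and 102 CPM (1.18, SE 0.11, adjusted p = 0.000254) and Col5a1 from 379.8 and 137 to 473 and 229 CPM (0.50, SE 0.13, adjusted p = 0.0288). Each of these was higher in co-culture in both lines. Relative to the mean of the NF libraries of the same gel, tumor cells had 19.5 and 14.8% of the NF level of Col12a1, 20.7 and 15.3% of Col5a3 and 10.7 and 6.74% of Col6a1 in gels 4 and 5. By the same measure, of the 10 fibroblast markers Pdgfra stood at 8.94 and 9.91%, Fap at 1.67 and 0.198% and the other 8 at 0 to 0.275%. The part of NF RNA in these rises was not tested.

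Chains at no more than 11.6 CPM in tumor cells alone also rose. Col3a1 went from 0.326 and 0.127 to 32.5 and 19.4 CPM (6.76, SE 0.28, adjusted p = 1.56e-05), Col1a1 from 3.1 and 1.78 to 89.1 and 28.1 CPM (4.48, SE 0.21, adjusted p = 1.56e-05), and Col1a2 from 0.272 and 0.891 to 3.17 and 13.1 CPM (3.73, SE 0.33, adjusted p = 0.000239). Their levels were 0.416 and 0.183%, 0.802 and 0.241%, and 0.0461 and 0.164% of the NF level in gels 4 and 5. By the same measure the fibroblast markers Mfap5 and Pdgfrb stood at 0.161 and 0.275% and at 0.171 and 0.0965%. Dcn, Lum, Prrx1, Twist2, Thy1 and Fbln1 stood lower, at 0 to 0.0923%, and the shares of Pdgfra and Fap are given above. How far NF RNA accounts for these low levels was not tested. The per-kb ratio of Col1a1 to Col1a2 was 53.3 and 4.08 in the tumor cells of gels 4 and 5 and 2.61 to 3.06 in the NFs of these gels. In 13-MCB-17 and 10-SJK-221 cells alone it was 21.6 and 3.79, on 57 and 28 counts of Col1a1 and 5 and 14 of Col1a2. Col6a2 (0.815 and 1.91 to 8.43 and 19.5 CPM, 3.33), Col5a2 (0 and 1 counts alone, 1.92 and 2.57 CPM in co-culture), Col8a2 (4.09), Col27a1 (1.38), Col20a1 (0.79) and Col11a2 (0.71) rose too, at no more than 19.5 CPM. Col6a3, which NFs made at 1265 to 3590.2 CPM in these gels, was not called in tumor cells (1.63 and 4.33 CPM alone and 0.961 and 5.59 CPM in co-culture; −0.07, SE 0.36, adjusted p = 0.915).

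The chains that fell in tumor cells included the type IV chains and Col17a1. Col17a1 fell from 45.5 and 41.9 to 4.24 and 9.7 CPM (−2.74, SE 0.28, adjusted p = 0.000437), Col4a1 from 809 and 571 to 386 and 385 CPM (−0.84, SE 0.15, adjusted p = 0.00488) and Col4a2 from 641 and 388 to 227 and 175 CPM (−1.35, SE 0.13, adjusted p = 0.000326). Col4a5 (301 and 283 to 184 and 154 CPM; −0.82, SE 0.11, adjusted p = 0.00126) and Col8a1 (1158 and 1075 to 729 and 523 CPM; −0.88, SE 0.14, adjusted p = 0.00278) fell as well, in both lines, and Col2a1 fell at no more than 5.03 CPM (−1.10). The Col4a1 to Col4a2 ratio per kb was 1.12 and 1.31 in tumor cells alone and 1.5 and 1.95 in co-culture, the highest being in 10-SJK-221 cells beside NFs. Col18a1, their most abundant chain by CPM, was not called (2006 and 1911 CPM alone, 1976 and 2362 CPM in co-culture; 0.12, SE 0.15, adjusted p = 0.634).

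**Figure D5:**
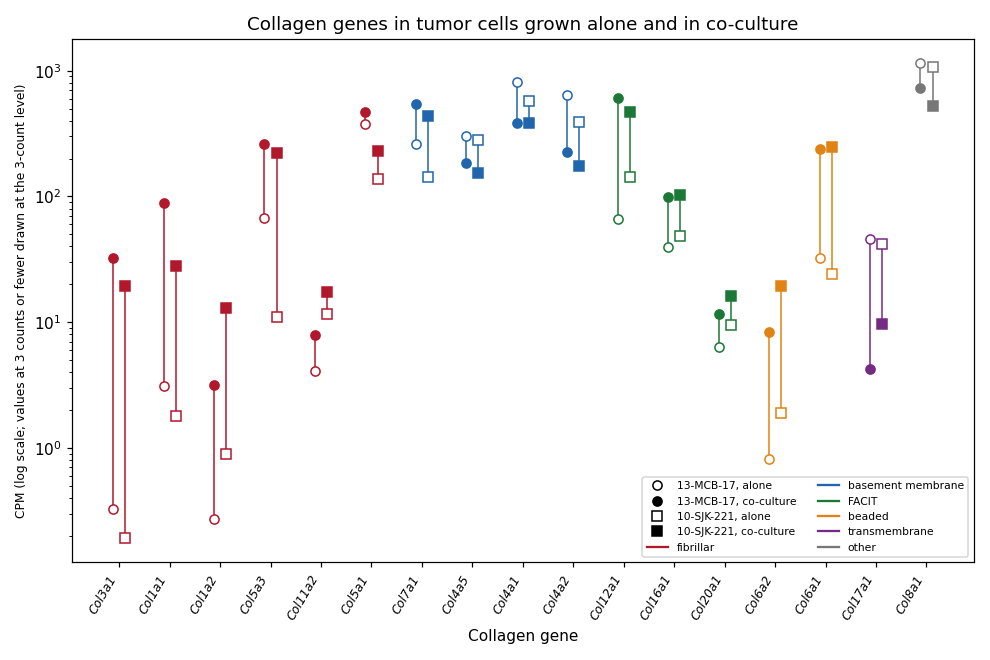
Levels of the 17 collagen genes that passed the test of co-culture in tumor cells and reached 10 CPM in a tumor library, on a log axis in CPM, in cells alone (open) and in co-culture (filled) for 13-MCB-17 (circles) and 10-SJK-221 (squares). Each symbol is 1 library. Filled symbols lie above open ones for fibrillar chains, Col7a1, FACIT and type VI chains in both lines, and below them for Col4a1, Col4a2, Col4a5, Col17a1 and Col8a1.

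In tumor cells 12 of 25 tested assembly genes rose and 2 fell in co-culture, against 10.8% and 11.5% of all genes, with a median change of 0.81, including Loxl3 (3.42, SE 0.53, adjusted p = 0.00287), P3h4 (2.68, from 0.76 to 7.18 CPM in 13-MCB-17 but from 0.191 to 0.114 CPM in 10-SJK-221), P3h1 (1.69) and the C-propeptide protease Bmp1 (1.60, SE 0.13, adjusted p = 0.00014), while Loxl4 (−2.12, SE 0.12, adjusted p = 3.37e-05) and Ppib (−0.81) fell. Of 10 receptor and turnover genes, 3 rose and 0 fell (edgeR), namely Mmp2 (3.02), Mmp13 (1.20) and Mmp14 (0.38). Between NFs and tumor cells alone, 22 of 32 assembly genes were higher in NFs and 4 lower (28.4% and 27.1% of all genes), and in shared gels 26 were higher and 3 lower (27.7% and 24.2%). Between subsets, where 3.93% and 3.6% of all genes were called, P3h2 (1.84) and Itga2 (1.42) were higher in CD26+ NFs, and P3h3 (−0.55), Fkbp14 (−0.45), Itga1 (−1.0) and Mrc2 (−0.67) were lower, and no other gene of either list was called.

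The tumor lines also differed from each other. Of 25 chains, 5 were higher and 5 lower in 10-SJK-221 than in 13-MCB-17 cells, against 5.93% and 8.54% of all genes, with each line represented by 1 culture in each condition. Col5a1 was lower in 10-SJK-221 cells alone (137 against 379.8 CPM) and in co-culture (229 against 473 CPM; −1.33, SE 0.13, adjusted p = 0.000597). Col1a1 (−1.51, SE 0.20, adjusted p = 0.002), Col4a2 (−0.63, SE 0.13, adjusted p = 0.0131), Col7a1 (−0.67, SE 0.15, adjusted p = 0.0205) and Col3a1 (−0.84, SE 0.22, adjusted p = 0.0367) were lower as well, each in both conditions by CPM. For Col3a1 the cells alone held only 6 counts in 13-MCB-17 and 2 in 10-SJK-221. Higher in 10-SJK-221 cells were Col1a2 (1.91), Col27a1 (1.94), Col6a3 (1.86), Col11a2 (1.22) and Col6a2 (1.14), all at no more than 19.5 CPM. DESeq2 called 2 chains higher and 4 lower (1.35% and 2.54% of all genes), and the calls of Col27a1, Col6a3, Col6a2 and Col3a1 were lost (adjusted p of Col3a1 = 0.292). The type I chains therefore differed between the lines in opposite directions, on low levels. In 13-MCB-17 and 10-SJK-221 cells alone, Col1a1 had 57 and 28 counts and Col1a2 5 and 14. The part of NF RNA in their co-culture levels was not tested.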

How the data were processed

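Reads had been aligned by the authors with HISAT2 2.2.1 to GRCm38, per the submitters' processing notes, and deposited as whole-number gene counts without normalization; the counting program and the use of strand are not given in the sources used here. The table's columns were matched to samples by their labels, and no per-sample column was left unused (0 columns). A further floxed allele of the tumor cells is not reported here. CPM were computed from library totals, and levels per kb from GENCODE M21 exon lengths, as 99.35% of matched genes had the same coordinates. Counts were tested in R 4.3.3 with edgeR 4.0.16 (filterByExpr, TMM scaling, quasi-likelihood F test) over the 10 libraries for NFs against tumor cells, the 6 NF libraries for culture (with subset), subset (with culture) and their interaction, and the 4 tumor libraries for culture (with line) and line. P-values were Benjamini-Hochberg adjusted over all tested genes with a threshold of 0.05. Alternatives were RLE and library-total scaling, 2 other filters, DESeq2 1.42.0, an absolute log2 fold change above 1, gels left out and gel as a block. Gel numbers pair samples, since per the labels the same number is a shared gel; deviations of same-gel samples correlated at 0.119 (CD26− with CD26+ NFs), 0.118 (CD26− NFs with tumor cells) and 0.071 (CD26+ NFs with tumor cells) over 17048 genes. Members with a group mean of at least 50 CPM were given by library, other members by range, and from the assembly and receptor lists up to 4 called genes with the largest changes each way and a mean of at least 1 CPM were named. The members and lists were chosen with earlier results of these data known. The fitting steps were tested on simulated data with known changes. Figures were drawn with matplotlib 3.10.9.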

Additional observations from a re-analysis of the deposited data

Results flagged for a closer look

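For 3 chains the interaction of subset and culture passed an adjusted p of 0.05. For Col14a1 the response of CD26+ NFs minus that of CD26− NFs was 2.10 on the log2 scale: CD26− NFs went from 974 CPM in gel 1 to 4.12 and 4.09 CPM in gels 4 and 5, and CD26+ NFs from 531 to 8.86 and 10.7 CPM. For Col24a1 it was 1.67, with 56.4 CPM and then 14.1 and 18.7 CPM in CD26− NFs and 53.7 CPM and then 53.1 and 49.1 CPM in CD26+ NFs. For Col6a5 it was 3.13, with 169.6 CPM and then 0.121 and 0.173 CPM in CD26− NFs and 175 CPM and then 1.09 and 1.77 CPM in CD26+ NFs. All 3 rest on 1 library of each subset alone, which is assumed to vary like the co-cultured libraries. Without the filter on low counts all 3 calls were lost (adjusted p of Col14a1 = 0.0562, of Col24a1 = 0.183 and of Col6a5 = 0.142), and with a filter of 1 CPM in 2 libraries those of Col24a1 and Col6a5.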

How the results depend on the processing

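Over 152 results and 1409 alternatives, 1264 kept their direction and side of the threshold, 117 lost the call, 20 gained one and 8 changed sign. Scaling to library totals moved the median of all genes to −0.10 (NFs against tumor cells alone), −0.13 (shared gels) and 0.16 (subsets). The sign changes were in uncalled values: Col7a1 between NFs and tumor cells in shared gels (−0.18 with library totals, −0.23 without gel 5 and 0.29 without gel 4), Col6a3 (−0.018 with library totals, −0.36 without gel 5 and 0.36 without gel 4), Col6a2 (−0.79 without gel 5 to 0.033 without gel 4), Col6a1 (−0.57 to 0.23) and Col4a2 (−0.14 without gel 5 to 0.39 without gel 4) in NF culture, and Col6a3 in tumor culture (0.11 without the line term). Leaving out single gels, 16 to 25 chains were higher in NFs in shared gels (16 without gel 5), against 9.175 to 29.6% of all genes. Between subsets 0 to 6 were higher and 0 to 6 lower, with 6 and 6 without gel 1 and 0 and 0 without gel 5. The shares of all genes between subsets were 0.0831 to 4.15% higher and 0.0346 to 5.49% lower. Requiring an absolute log2 change above 1 left 8 that rose in NF culture (16% of all genes) and 3 that fell in tumor culture (4.12%). In this setting 0 were higher and 2 lower between subsets (2.52% and 0.859% of all genes), and 2 lower between lines (3.44%). DESeq2 called 4 higher and 10 lower between subsets (2.68% and 3.15% of all genes). It called 1 with a more negative response in CD26+ NFs (0.164%) and 2 higher between lines (1.35%). With library totals 2 were lower between subsets (1.75% of all genes) and 1 response was more negative (0.314%). Without the filter, 0 responses were more positive (0.0402% of all genes) and 8 chains lower between lines (6.73%). A filter of 1 CPM in 2 libraries left 1 more positive response (0.165%). Without the line term 0 rose and 0 fell in tumor culture (0% of all genes each). With gel as a replicate block, 3 chains were higher and 6 lower between subsets (4.4% and 4.47% of all genes). In shared gels 24 of 35 tested chains were then higher and 4 lower in NFs (32.1% and 27.4%). With the block 3 responses were more positive and 2 more negative (1.42% and 1.01%). Beyond the 5 gained calls given above, the block changed no call of a tested chain. The causes were not tested. For tumor culture and tumor line, leaving out a library was not run as a test, since no residual degrees of freedom remain.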
